A study of Homo sapiens with 6 samples.

Results

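The genes described here encode the 5 subunits of NF-kB (NFKB1, NFKB2, REL, RELA and RELB), 3 proteins of the IkB family (NFKBIA, NFKBIE and NFKBIZ) and 2 feedback regulators of the pathway (TNFAIP3 and BIRC3). They were taken by symbol from the gene table of a knockdown experiment, in which each of the 10 symbols had 1 row, among 74852 genes listed and 18717 genes with enough reads to be tested, and all 10 were tested. The experiment used MDA-MB-231, an established human cell line of triple negative breast cancer (TNBC) with a mesenchymal phenotype. The cells received either control siRNAs (si-CTRL) or siRNAs (si-NEK2) against NEK2, each as a pool. NEK2 is a mitotic kinase that the study examines as a splicing regulator. Both groups were transfected in 2 rounds and harvested 24 h after the last one, as the sample records state (the study's methods give another harvest time), and 3 polyA RNA libraries were made per group. Each group used a single pool, so loss of NEK2 and any other effect of the NEK2 pool cannot be told apart.

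Between 52625492 and 87454509 reads were assigned to genes in a library, and NEK2 itself was left at 10.0% of its control level. Replicate 1 of si-CTRL stood apart from the other libraries: the chi-square per gene against its own replicates was 75.8 and 80.2, whereas it was 9.11 to 26.6 for the other replicate pairs. Results that rest on this library are therefore given with and without it. The mesenchymal markers VIM, CD44 and AXL were abundant, with summed normalized counts of 238991 to 294056 in si-CTRL and 206337 to 219885 in si-NEK2 libraries, whereas 2 of 4 luminal and receptor-positive markers (ESR1 and PGR) and 6 of 10 immune and stromal markers had a mean under 10. The summed counts were 1197 to 1391 against 1982 to 2284 for the luminal markers, carried by a higher FOXA1, and 139 to 179 against 68.3 to 76.1 for the immune and stromal markers, carried mainly by CSF1R. Of the mesenchymal markers, CD44 was lower by the criteria used below (54108 ± 12921 to 31464 ± 2103, SD, n = 3), whereas VIM and AXL did not pass them. GATA3, a luminal marker, was expressed at a mean of 374. The part of these differences in the results was not tested. Nothing in the sample records says that the replicates came from separate cultures, so p-values measure the spread between these libraries. The sources used here do not name batches of library preparation.

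NF-kB is a family of transcription factors that act as dimers of the 5 subunits. In resting cells most dimers are held in the cytoplasm by IkB proteins, which are destroyed when IkB kinase (IKK) is switched on by cytokine and pattern recognition receptors, and the freed dimers then bind kappa B sites in DNA. Many regulators of the pathway are also its target genes, NFKBIA and TNFAIP3 among them, so that activity feeds back on itself, and constitutive NF-kB activity is well known from TNBC lines.

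As several of these genes are known targets of their own pathway, the bases upstream of their start sites are shown first. RefSeq promoter sequences (GRCh38.p14, 250 bases before to 50 after each start site) held at least 1 entry for 8 of the 10 genes, all but RELB and NFKBIE. They were searched on both strands for the kappa B consensus of 10 letters, which reads 3 G, a purine, any 2 bases, 2 pyrimidines and 2 C, with no other motif searched. The match nearest to a start site is printed for each gene that had one, with a further site for NFKB2, NFKBIZ and BIRC3. NFKB2 had other sites that are not printed, 176 bases before the first of its start sites below and 78 bases before the second. Capitals mark the matching letters, all read 5′ to 3′ on the strand of the gene, and 2 overlapping matches appear as 1 longer run.
NFKB1, chr4:102501300-102501329, plus strand, 49 bases before the start site: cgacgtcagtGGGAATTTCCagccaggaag
NFKB2, chr10:102395674-102395703, plus strand, 21 bases before one start site: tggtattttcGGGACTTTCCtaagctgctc
NFKB2, chr10:102394461-102394491, plus strand, 107 bases before another start site: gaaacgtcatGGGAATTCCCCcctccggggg
REL, chr2:60881517-60881547, plus strand, 47 bases before: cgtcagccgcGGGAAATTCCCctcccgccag
NFKBIA, chr14:35404811-35404840, minus strand, 81 bases before: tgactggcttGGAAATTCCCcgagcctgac
NFKBIZ, chr3:101827757-101827786, plus strand, 223 bases before one start site: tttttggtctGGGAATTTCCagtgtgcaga
NFKBIZ, chr3:101849265-101849294, plus strand, 239 bases before another start site: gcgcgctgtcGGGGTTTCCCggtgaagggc
TNFAIP3, chr6:137867182-137867223, plus strand, 67 bases before, 2 matches: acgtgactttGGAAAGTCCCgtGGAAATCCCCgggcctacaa
BIRC3, chr11:102317339-102317368, plus strand, 135 bases before: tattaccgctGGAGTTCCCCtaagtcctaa
BIRC3, chr11:102317275-102317304, plus strand, 199 bases before: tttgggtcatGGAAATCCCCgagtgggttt
A match was thus found for 7 of the 8 genes with an entry, whereas 13.3% of all 27305 genes with an entry, and 11.3% of the 35116 entries, hold one. RELA had none in its 2 entries, and a further entry of NFKB1 and a further entry of NFKB2 held none either. Read on either strand, NFKB1, NFKBIA, NFKBIZ and REL share an identical match of 10 letters, TNFAIP3 and BIRC3 share another, and TNFAIP3 and NFKB2 yet another. These matches describe the letters in the window and do not show that a factor binds there.

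When NEK2 was silenced, 6 of the 10 genes fell and 0 rose. The genes that fell were the subunits NFKB2 and RELB, the IkB proteins NFKBIE and NFKBIZ, and both feedback genes, TNFAIP3 and BIRC3. TNFAIP3 kept 22.3% of its control level and had the largest change among the 10, and NFKB2, at 64.7%, had the smallest among the 6 that fell. NFKB1, REL, RELA and NFKBIA did not pass the criteria. A gene was called regulated by limma with the thresholds of the study, an unadjusted p-value up to 0.05 with a change of 1.5-fold or more, and among all genes tested 14.3% were lower and 8.23% higher by this rule. With the same thresholds edgeR and DESeq2 also gave 6 lower and 0 higher. By the p threshold alone, with any fold, 7 genes were lower and 0 higher by limma, against 25.0% and 26.0% of all genes, and edgeR gave 7 and 0 and DESeq2 8 and 0. With p-values adjusted by the Benjamini-Hochberg method over all genes tested the same 6 genes were called, against 13.1% of all genes lower and 7.47% higher. At a change of 2-fold or more 3 genes (RELB, NFKBIZ and TNFAIP3) were lower and 0 higher, against 6.59% and 2.15% of all genes, or 6.31% and 1.99% at an adjusted p. NFKBIZ (log2 fold change -1.004) and BIRC3 (-0.99) lay close to that threshold on either side, and their order around it changed with the analysis. The median log2 fold change was -0.66 for the 10 genes and 0.01 for all genes tested. The 3 si-NEK2 libraries were all below the 3 si-CTRL libraries for 8 of the 10 genes and all above them for 1, against 26.9% and 28.2% of all genes. As the RNA came from whole cultures, fewer cells that express a gene and less RNA per cell cannot be told apart.

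**Figure D1:**
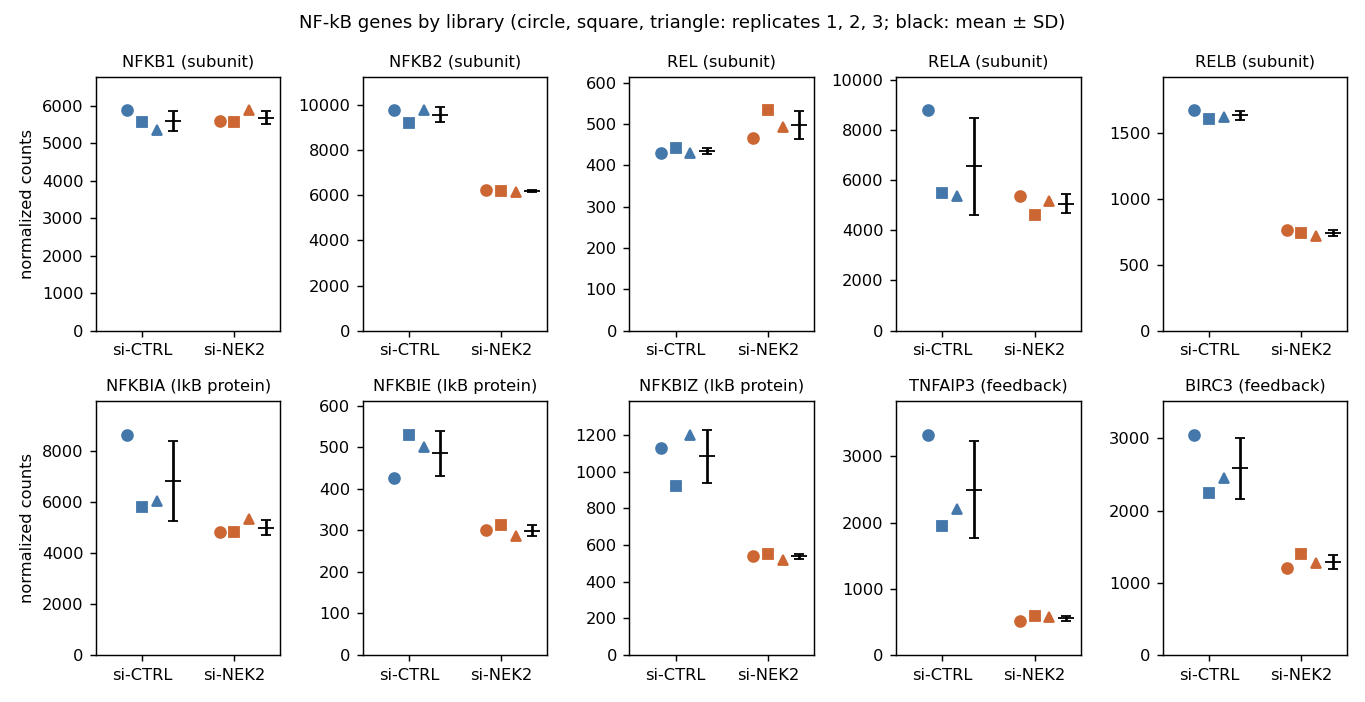
Normalized counts (y axis, starting at 0, with its own scale for each gene) of the 10 NF-kB genes in each si-CTRL (blue) and si-NEK2 (orange) library, with circles, squares and triangles for replicates 1, 2 and 3 and black bars for the mean ± SD of 3 libraries. The groups are separated for every gene but NFKB1, and replicate 1 of si-CTRL lies well above the other control libraries for RELA, NFKBIA and TNFAIP3.

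Of the subunits, RELB changed most. RELB (GSHG0015006, chr19:45504690-45541456, hg19) encodes the partner of p52 in the non-canonical pathway. Its normalized counts were 1677, 1613 and 1627 in si-CTRL and 767, 740 and 719 in si-NEK2 replicates 1 to 3, so that the groups were far apart and the libraries within a group nearly alike. The mean went from 1639 ± 34.0 to 742 ± 23.9 (SD, n = 3), a log2 fold change of -1.14 (SE 0.07, 95% interval -1.31 to -0.98, adjusted p = 1.43e-05 from limma), and it ranged from -1.27 to -1.11 over the alternative analyses.

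NFKB2 (GSHG0003646, chr10:104153867-104162286) encodes p100, which is cleaved to the p52 subunit and in its uncleaved form retains RELB. It had 9784, 9211 and 9786 normalized counts in the si-CTRL libraries and 6264, 6210 and 6157 in the si-NEK2 libraries. All 3 si-NEK2 libraries lay within a narrow band below the controls, at a mean of 6210 ± 53.2 against 9594 ± 331 (SD, n = 3). The log2 fold change was -0.63 (SE 0.06, adjusted p = 8.53e-05), and its 95% interval of -0.76 to -0.49 spans the 1.5-fold threshold. RELB and NFKB2, the subunits of the non-canonical pathway, were hence both lower in si-NEK2 cells.

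The other precursor gene, NFKB1 (GSHG0022759, chr4:103422486-103538459), which encodes p105 and p50, was measured at the same level in both groups within the spread of the libraries. The counts were 5885, 5579 and 5349 in si-CTRL and 5604, 5567 and 5888 in si-NEK2, with overlapping groups. The log2 fold change was 0.02 (SE 0.07, adjusted p = 0.815), with a 95% interval of -0.13 to 0.17 that holds no change of 1.5-fold, and its sign differed between the alternative analyses, from -0.11 with equal totals to 0.06 without replicate 1 of si-CTRL. The difference between NFKB2 and NFKB1 is taken up below as shares within a library.

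RELA (GSHG0005905, chr11:65421066-65430620) encodes p65, the main activating subunit of the canonical pathway. Its counts were 8788, 5487 and 5382 in si-CTRL and 5375, 4628 and 5166 in si-NEK2. The si-NEK2 libraries were all lower, but the third control lay only just above the first si-NEK2 library, and the first control was 1.62 times the mean of the other control libraries. The log2 fold change of -0.34 (SE 0.17, 95% interval -0.73 to 0.05, adjusted p = 0.146) became -0.11 (SE 0.07, adjusted p = 0.209) without replicate 1 of si-CTRL. RELA lies within the span that the annotation gives to MIR612 and NEAT1, whose row also had its highest si-CTRL value in replicate 1 (47530, against 37250 and 37290). In si-NEK2 replicates 1 to 3 that row had 45090, 45850 and 48060, each above control replicates 2 and 3. The strand setting of the read counting is not given in the sources used here, so reads shared by these rows cannot be told apart.

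REL (GSHG0016485, chr2:61108630-61155289), which encodes c-Rel, a subunit best known from lymphocytes, was the only one of the 10 genes with all si-NEK2 libraries above the controls. It had 429.9, 441.7 and 429.7 normalized counts in si-CTRL and 464.8, 533.2 and 492.9 in si-NEK2. The difference was small, with a log2 fold change of 0.19 (SE 0.09, 95% interval -0.02 to 0.41, adjusted p = 0.128), and it was not called. Over the alternatives its adjusted p ranged from 0.0213 to 0.609, and its log2 fold change from 0.07 to 0.33, under the 1.5-fold threshold.

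**Figure D2:**
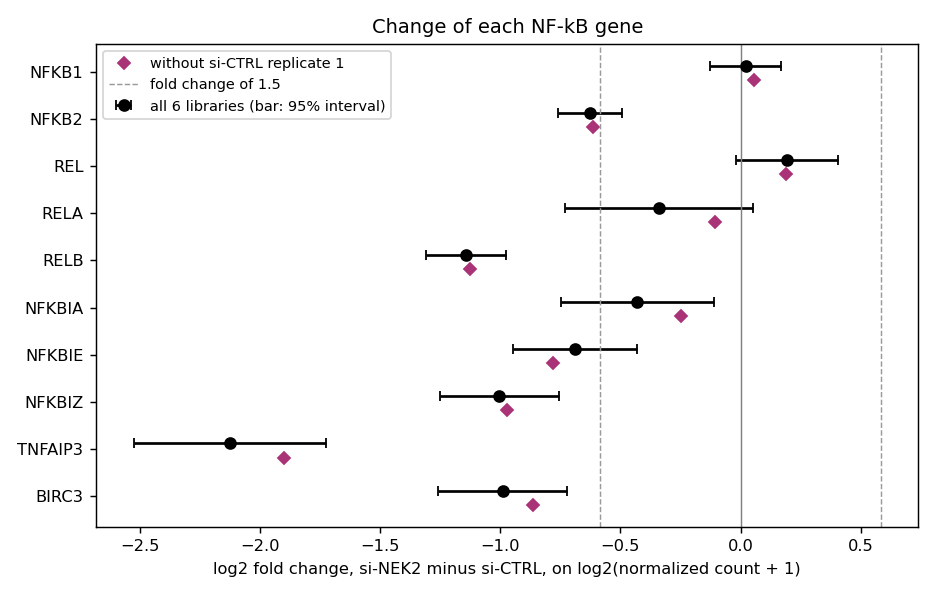
Log2 fold change of each NF-kB gene, si-NEK2 minus si-CTRL, on log2(normalized count + 1) (x axis), with black points and bars for the estimate and 95% interval from all 6 libraries and diamonds for the estimate without replicate 1 of si-CTRL. Dashed lines mark a change of 1.5-fold; RELB, NFKBIE, NFKBIZ, TNFAIP3, BIRC3 and NFKB2 lie beyond it on the left with and without that library, and the diamonds of RELA (-0.11) and NFKBIA (-0.25) lie nearer to 0 than their points (-0.34 and -0.43).

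Among the IkB proteins NFKBIA, NFKBIE and NFKBIZ, NFKBIZ changed most and NFKBIA least. NFKBIZ (GSHG0132345, chr3:101546834-101579869) encodes IkB zeta, a nuclear protein that acts with p50 on secondary response genes rather than holding dimers in the cytoplasm. It had 1127, 924 and 1203 normalized counts in si-CTRL and 539, 551 and 521 in si-NEK2. Every si-NEK2 library was well below the lowest control, and 49.5% of the level was left, from 1085 ± 144 to 537 ± 15.4 (SD, n = 3), with a log2 fold change of -1.004 (SE 0.11, adjusted p = 0.000177). Without replicate 1 of si-CTRL it was -0.97 (SE 0.11, adjusted p = 7.91e-05 from limma). NFKBIZ lies within the span of NXPE3, whose counts of 469.9 to 685.7 in si-CTRL and 588.4 to 679.6 in si-NEK2 overlapped between the groups.

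NFKBIE (GSHG0026645, chr6:44225903-44233531) encodes IkB epsilon, which retains RELA and REL dimers. It had 424.9, 530.8 and 501 normalized counts in si-CTRL and 301.1, 311.8 and 285.9 in si-NEK2, without overlap. Replicate 1 was here the lowest control library, unlike for NFKBIA. The mean fell from 486 ± 54.6 to 299.6 ± 13.0 (SD, n = 3), a log2 fold change of -0.69 (SE 0.11, 95% interval -0.95 to -0.43, adjusted p = 0.00141), and it was -0.78 without replicate 1 of si-CTRL. With quantile scaling the value of -0.53 (adjusted p = 0.00572) missed the 1.5-fold threshold.

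NFKBIA (GSHG0009307, chr14:35870717-35873960) encodes IkB alpha, the classical inhibitor, which is resynthesised when NF-kB is active. Its counts were 8661, 5831 and 6039 in si-CTRL and 4827, 4824 and 5356 in si-NEK2, with all si-NEK2 libraries below the controls. The first control was 1.46 times the mean of the other controls. The log2 fold change was -0.43 (SE 0.14, 95% interval -0.75 to -0.11, adjusted p = 0.0349) with all libraries and -0.25 (SE 0.06, adjusted p = 0.00634) without replicate 1 of si-CTRL, under the 1.5-fold threshold in both cases. NFKBIA was thus lower by less than the fold that the study required, and over the alternatives its adjusted p ranged from 0.00534 to 0.108.

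Both feedback genes fell. TNFAIP3 (GSHG0026063, chr6:138188325-138204450) encodes A20, an enzyme that edits ubiquitin chains and shuts off signalling to IKK. It had 3332, 1952 and 2209 normalized counts in si-CTRL and 516, 588 and 567 in si-NEK2. The lowest control was thus well above the highest si-NEK2 library, although the first control was 1.60 times the mean of the others. The mean went from 2498 ± 734 to 557 ± 36.9 (SD, n = 3), a log2 fold change of -2.13 (SE 0.18, 95% interval -2.53 to -1.73, adjusted p = 4.68e-05), and without replicate 1 of si-CTRL it was -1.90 (SE 0.09, adjusted p = 5.57e-07). An unnamed row that overlaps the start of TNFAIP3 had a mean of only 66.0 normalized counts.

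BIRC3 (GSHG0005208, chr11:102188181-102210132) encodes cIAP2, a ubiquitin ligase that limits cell death downstream of the TNF receptor and restrains the non-canonical pathway. Its counts were 3055, 2251 and 2448 in si-CTRL and 1202, 1395 and 1278 in si-NEK2. The groups did not overlap, and the first control was again the highest, at 1.30 times the mean of the other control libraries. The log2 fold change was -0.99 (SE 0.12, adjusted p = 0.000269), and -0.86 (SE 0.08, adjusted p = 1.89e-05) without that library. Its paralog BIRC2, which encodes cIAP1, was not regulated (log2 fold change -0.16, SE 0.07, adjusted p = 0.0875), and was chosen for mention after its value was seen.

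Replicate 1 of si-CTRL was the highest control library for 6 of the 10 genes, against 40.6% of all genes tested. It exceeded the mean of the other controls by 1.4 times or more for 3 of them (RELA, TNFAIP3 and NFKBIA), as it did for 6.86% of all genes. The ratio for the others ranged from 0.824 for NFKBIE to 1.30 for BIRC3. Without this library the same 6 genes were called, since their log2 fold changes then ranged from -1.90 for TNFAIP3 to -0.61 for NFKB2.

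Normalized counts grow with transcript length, so levels were compared between genes per kb of transcript, with the length of the longest coding isoform in GENCODE 29. On this scale NFKBIA was the most abundant of the 10 genes in si-CTRL cells, at 4393 ± 1013 normalized counts per kb (SD, n = 3), followed by NFKB2 (3094 ± 107), RELA (2427 ± 717) and NFKB1 (1372 ± 65.8). RELB followed at 714 ± 14.8, TNFAIP3 at 527 ± 155 and BIRC3 at 497 ± 80.6. NFKBIZ (276 ± 36.7), NFKBIE (188 ± 21.1) and REL (38.5 ± 0.607) were the least abundant. REL has by far the longest transcript used here, 11255 bases, so its level per kb depends most on that choice. Among neighbours in this order the ranges over libraries overlapped for NFKB2 and RELA, for RELB and TNFAIP3 and for TNFAIP3 and BIRC3. The overlaps of RELA with NFKB2 and of TNFAIP3 with RELB rested on replicate 1 of si-CTRL (RELA 3255, TNFAIP3 704). In the other controls RELA had 2032 and 1993, below NFKB2 (2970 to 3156). TNFAIP3 had 412 and 467 there, below RELB (703 to 731).

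In si-NEK2 cells the top of the order was the same, with NFKBIA at 3211 ± 197, NFKB2 at 2003 ± 17.2, RELA at 1873 ± 143 and NFKB1 at 1392 ± 43.0 normalized counts per kb, and RELB again came next at 323 ± 10.4. TNFAIP3 moved from rank 6 to rank 8, to 118 ± 7.79, below BIRC3 (249 ± 18.7) and NFKBIZ (137 ± 3.93), and its range of 109 to 124 overlapped that of NFKBIE (111 to 121). The ranges of NFKB2 and RELA overlapped in this group too. The order of TNFAIP3 and NFKBIZ was thus turned, with ranges that did not overlap in either group (412 to 704 against 236 to 307 in si-CTRL, and 109 to 124 against 133 to 141 in si-NEK2).

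The make-up of the subunit pool was then compared as the share of each gene among the 5 subunits per length, which does not depend on how libraries are scaled. The share of RELB was 8.48%, 9.89% and 9.84% in si-CTRL and 5.81%, 5.92% and 5.50% in si-NEK2, with no overlap. That of NFKB1 was 16.7%, 19.2% and 18.2% in si-CTRL and 23.8%, 25.0% and 25.3% in si-NEK2, all higher. A share also moves with the levels of the other subunits. NFKB1 itself had a log2 fold change of 0.02, whereas NFKB2 and RELB were lower (-0.63 and -1.14). REL took 0.508% ± 0.0575 in si-CTRL and 0.785% ± 0.0774 in si-NEK2 (SD, n = 3), again without overlap. For these 3 genes the exact two-sided permutation test gave p = 0.1, the smallest that 3 against 3 libraries allow, and 0.167 after adjustment over the 5 shares, so the design could not reach 0.05. NFKB2 went from 40.7% ± 3.71 to 35.6% ± 1.04 (exact permutation p = 0.2, adjusted 0.25). Replicate 1 of si-CTRL (36.6%) lay among the si-NEK2 values of 34.8% to 36.7%. The other controls, at 41.8% and 43.8%, lay above them. RELA had 31.3% ± 5.58 and 33.2% ± 1.59 (exact permutation p = 0.7), a difference of 1.87 percentage points that ranged from 0.0340 without replicate 3 to 5.08 without replicate 1 of si-CTRL. The difference for REL depended on the length used, at 0.277 percentage points per transcript length, 0.903 without division by length and 1.13 per coding length. Without division and per coding length the groups also separated for NFKB2 (exact permutation p = 0.1).

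**Figure D3:**
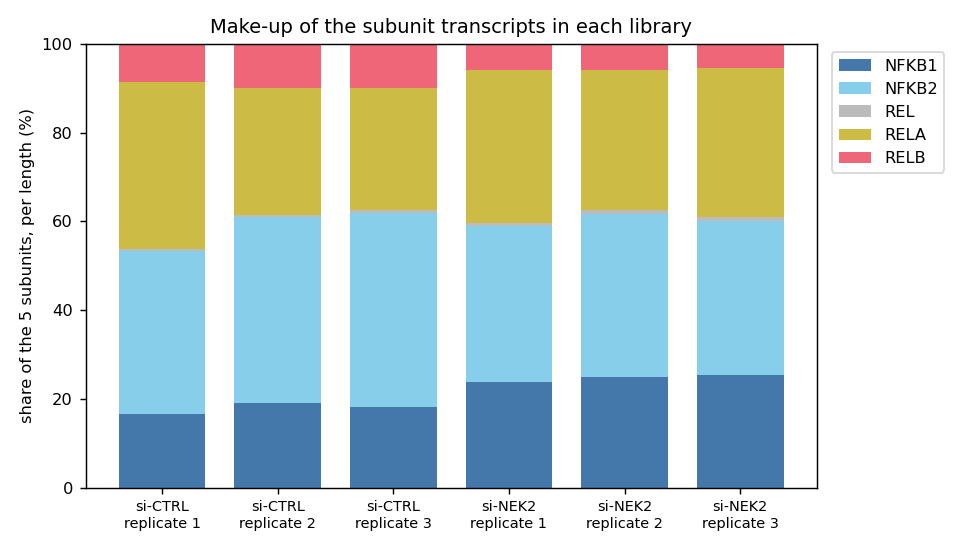
Stacked bars of the share of each NF-kB subunit gene among the 5 subunits, per transcript length, in percent (y axis, 0 to 100) for each of the 6 libraries (x axis). The share of NFKB1, at the bottom, is 16.7% to 19.2% in si-CTRL and 23.8% to 25.3% in si-NEK2 libraries, and that of RELB, at the top, 8.48% to 9.89% and 5.50% to 5.92%.

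The remaining genes of the pathway, and 10 interferon response genes of a neighbouring pathway, were described from lists. Together the lists held 95 genes, of which 85 were tested. Of these, 33 fell, 1 rose and 51 did not pass, and their median log2 fold change was -0.26, beside 0.01 for all genes. These are 38.8% lower and 1.18% higher, against 14.3% and 8.23% of all genes tested, shares against which the counts of each list below can also be read. With the same thresholds edgeR and DESeq2 called 33 lower and 1 higher. By the unadjusted p threshold with any fold limma gave 43 lower and 15 higher, against 25.0% and 26.0% of all genes. The other members of the IkB family were BCL3, a nuclear coactivator of p50 and p52 homodimers, which fell to 52.1% of control (log2 fold change -0.97, SE 0.21, adjusted p = 0.00539) in a row shared with MIR8085, and NFKBIB (-0.30, SE 0.23, adjusted p = 0.332) and NFKBID (0.09, SE 0.16, adjusted p = 0.683), which were not called. The counts of BCL3 were 404, 437 and 522 in si-CTRL and 277, 270 and 162 in si-NEK2, without overlap.

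Upstream of NF-kB, 4 of the 10 receptors tested fell, 0 rose and 6 did not pass. CD40, which activates both arms of the pathway, had a log2 fold change of -0.72 (SE 0.08, adjusted p = 0.000233), and TNFRSF1B (-0.63), IL1R1 (-0.62) and TLR3 (-0.61) lay just past the 1.5-fold threshold. Each of the last 3 missed that threshold under some alternatives. Of the list of adaptors and ubiquitin ligases, which also holds the IRAK kinases, 6 of 15 fell and 9 did not pass. MYD88, the adaptor of the interleukin 1 and Toll-like receptors, had 6507, 5240 and 5771 normalized counts in si-CTRL and 1724, 1805 and 1856 in si-NEK2, so that 30.7% was left (log2 fold change -1.70, SE 0.09, adjusted p = 5.70e-06). The kinases IRAK1 and IRAK2, which MYD88 recruits, had log2 fold changes of -1.02 (SE 0.06) and -0.85 (SE 0.11), and RBCK1, a part of the linear ubiquitin ligase, of -0.77 (SE 0.15). The list of IKK, TAK1 and NIK kinases also holds their non-kinase partners IKBKG, TAB1, TAB2 and TAB3. In it, 0 of the 9 genes tested were regulated by limma, with log2 fold changes from -0.52 (TAB3) to 0.47. The row of TAB1 is shared with SYNGR1. By the unadjusted p threshold alone 6 of the 9 genes differed, 4 lower and 2 higher, all under 1.5-fold. Among all genes 25.0% were lower and 26.0% higher by that threshold. With edgeR and DESeq2, 0 of the 9 were also called at 1.5-fold.

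Only 4 of the 9 ligands were tested, and 3 of them fell. IL1B and IL1A, which act through MYD88, kept 8.56% and 10.4% of their control levels, with log2 fold changes of -3.54 (SE 0.10, adjusted p = 6.10e-07) and -3.25 (SE 0.15, adjusted p = 4.16e-06). TNFSF12, in a row shared with TNFSF13, had a log2 fold change of -0.79 (SE 0.14, adjusted p = 0.00223). Of the other negative regulators, 2 of 13 fell, 1 rose and 10 did not pass, and these shares of 15.4% and 7.69% were close to those of all genes. ZC3H12A, an RNase that destroys cytokine mRNAs, fell by 1.10 on the log2 scale (SE 0.11, adjusted p = 9.55e-05) in a row shared with MIR6732, and TNIP3 fell from low counts (38.8 to 5.93). ITCH, a ubiquitin ligase that works with A20, was the one that rose, from 9286 ± 283 to 16354 ± 410 (SD, n = 3), a log2 fold change of 0.82 (SE 0.06, adjusted p = 2.49e-05).

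Of the target genes, 16 of 22 tested fell, 0 rose and 6 did not pass, with a median log2 fold change of -1.28. The largest changes were those of BCL2A1, an antiapoptotic gene of the BCL2 family (-4.26, SE 0.20), the cytokine CSF2 (-3.03, SE 0.34) and the chemokines CXCL1 (-2.79, SE 0.15) and CXCL8 (-2.46, SE 0.10). CXCL8, by far the most abundant of these 4, had 16678, 14504 and 18765 normalized counts in si-CTRL and 2816, 3158 and 3066 in si-NEK2. The interferon response genes, listed as a neighbouring pathway, had 1 of 9 lower, MX1 (-1.07, SE 0.14, adjusted p = 0.000424), and 8 not called, with a median of -0.12. The lists were chosen with results of these libraries known, and no list was tested against other genes.

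**Figure D4:**
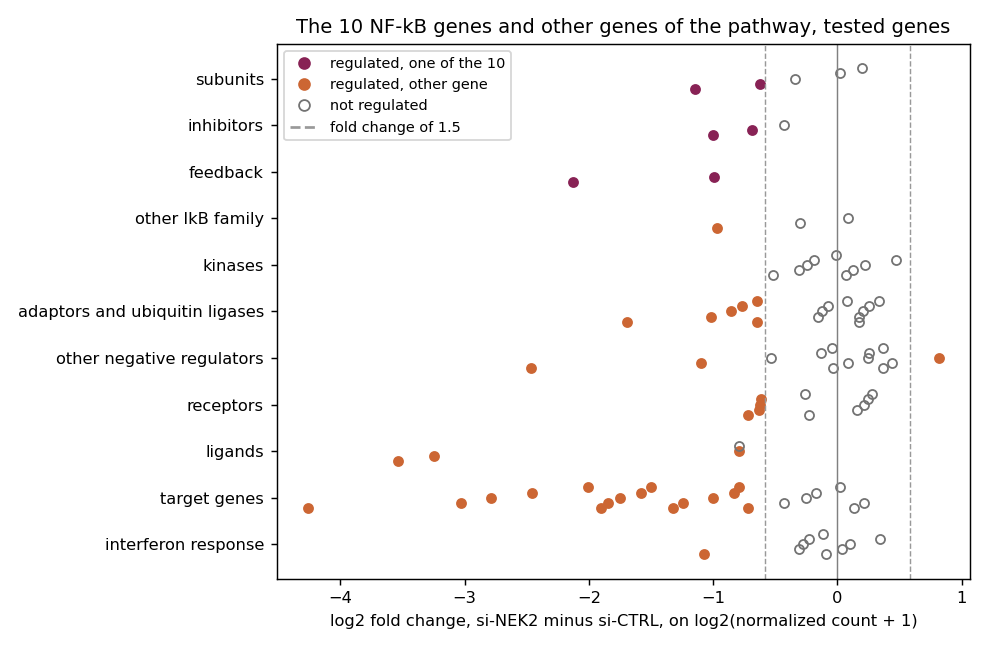
Log2 fold change, si-NEK2 minus si-CTRL, on log2(normalized count + 1) (x axis) of each tested gene, by role in the pathway (y axis), with filled points for regulated genes (past the p threshold and 1.5-fold or more) and open points for the others. The points furthest to the left are the target gene BCL2A1 (-4.26) and the ligands IL1B (-3.54) and IL1A (-3.25). All 9 genes of the kinase list, which also holds non-kinase partners, lie between -0.52 and 0.47. ITCH is the only filled point on the right.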

How the data were processed

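PolyA RNA of MDA-MB-231 cells was sequenced in 3 si-CTRL and 3 si-NEK2 libraries, grouped by the sample titles. The authors deposited a signal per gene and library, namely assigned reads scaled by a DESeq2 size factor, called normalized counts here. Their processing notes name STAR 2.4.0, SAMtools, Picard, FastQC, DESeq2 and hg19, and the annotation was FAST DB, whereas the counter and its strand setting are not given in the sources used here. The deposited signal was a whole number of reads, within 0.01 read, in 100% of values, 1 read being worth 0.818 to 1.25 normalized counts.

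Genes that averaged 10 normalized counts or more were tested on log2(normalized count + 1) with limma 3.58.1 (trended eBayes, R 4.3.3), with Benjamini-Hochberg adjustment over all 18717 genes. This scale understates changes of low genes. From each list the text names up to 4 regulated genes with a mean of at least 50, the largest changes first, and all other IkB genes. TNIP3, BIRC2 and the markers fell outside this rule and were chosen after their values were seen. The members, lists and tests were chosen with earlier results of these data known. Shares were compared with exact permutation tests (scipy 1.17.1), per transcript length or, as alternatives, per coding length or without division. Other alternatives were pseudocounts of 0.1 and 5, no filter or a mean of at least 50, 3 scalings, untrended eBayes, a replicate block, each library left out, edgeR 4.0.16, DESeq2 1.42.0 on the recovered reads, and a fold of 2. The code was tested on simulated data. IKBKE and OAS1 were not analysed here. Promoter sequences were those of RefSeq, and gene lengths those of GENCODE 29.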

Additional observations from a re-analysis of the deposited data

How the results depend on the processing

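The count of 6 NF-kB genes lower and 0 higher was also 6 and 0 under 16 of the 17 alternatives at the 1.5-fold threshold, and with quantile scaling 5, since NFKBIE then missed the fold. With a fold of 2 instead it was 3 lower (RELB, NFKBIZ and TNFAIP3), also 3 at an adjusted p, and 20 lower and 0 higher among the 85 other listed genes, beside 6.59% and 2.15% of all genes. These listed genes, called pathway genes here, include the interferon list. NFKBIZ missed 2-fold in some alternatives, at -0.97 without replicate 1 of si-CTRL and -0.93 with quantile scaling. BIRC3 passed it in others, at -1.01 with edgeR and with DESeq2. At 1.5-fold, leaving out each library in turn gave 6 lower throughout and 30 to 35 lower and 1 higher among the pathway genes. NFKB1 changed sign, to -0.11 with equal totals, to -0.0656 with quantile scaling and within -0.0115 to 0.0574 when a library was left out, and NFKBID to -0.0394 with equal totals. Of 357 fits of the 21 named pathway genes, 349 kept the call and the direction and 7 lost the call, all of TNFRSF1B, IL1R1 or TLR3. Equal totals moved the median log2 fold change of all genes from 0.01 to -0.12, and calls from 2672 lower and 1541 higher to 3480 lower and 941 higher, so that RELB, at -1.27 there, is to be read against that shift. Same-numbered libraries did not deviate together (correlations of -0.0910, 0.0469 and -0.147), so the numbers do not pair them, and with the replicate block 6 of the 10 genes, 33 pathway genes and 2585 genes in all were lower. The lowest value of the 10 genes in any library was 285.9 normalized counts, and for REL and RELA the 95% intervals of the log2 fold change, which reached 0.41 and -0.73, set what 3 libraries a group could show.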

Other observations

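Pathway genes too low to be tested are given here as values only. TNF, a ligand of the pathway, was measured at 10.0, 11.6 and 9.51 normalized counts in si-CTRL and 3.27, 1.81 and 2.13 in si-NEK2 replicates 1 to 3. It was lower in all 3 si-NEK2 libraries but with few reads in each. LTB had 2.50 to 12.6 in si-CTRL and 3.20 to 11.5 in si-NEK2, and TNFSF13B 1.90 to 10.0 and 5.42 to 12.8, with overlapping groups. The target genes CXCL10 and VCAM1 did not exceed 9.51 normalized counts in any library. TLR2, CD40LG and TNFSF11 were listed at 0 throughout, where counting error alone leaves room for 3 reads per library.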
